A study of Mus musculus with 12 samples.

Results

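The comparison set H2AK119ub peaks of mouse bone marrow cells with the ASXL1 form 25RA against those with the form 10RA. Its members were the 33863 peak intervals of the 25RA library and the 28228 of the 10RA library on chromosomes 1 to 19, X and Y. These were 62091 of the 159554 intervals on those chromosomes in the 12 libraries of the series. They were also read at 21738 protein-coding promoters, each 2 kb on either side of the canonical transcription start site (TSS). The cells were c-Kit+ cells purified from mouse bone marrow, which the labels call haematopoietic stem and progenitor cells, with genotype given as mock. All had been infected with a retrovirus for BAP1 and with a second retrovirus. In the 25RA library the second retrovirus carried ASXL1 residues 1 to 590 in the form named 25RA, called condensation-defective in the labels. In the 10RA library it carried the form named 10RA, called condensation-impaired. The other libraries used here were H2AK119ub with unmutated ASXL1 1-590, H2AK119ub with empty vector, and BAP1 and ASXL1 ChIP-seq with 1-590 and with 10RA. The 4 H2AK119ub libraries carry the same batch label. The retroviruses add BAP1 and ASXL1 to what the cells make themselves, and BAP1 was added in the vector cells too. With 1 library per condition, a difference between 25RA and 10RA has no replicate check and no test of the conditions was possible. Wilson 95% intervals, given in brackets, cover counting error only. The names inside the 25RA list use a different mutant code from its title, and its identity was taken from the title. Peaks of a histone mark do not show gene expression, so the labelled cell type was not checked against expressed markers. Kit and Cd34, which mark these progenitors, had H2AK119ub promoter peaks in both forms.

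H2AK119ub is histone H2A with a single ubiquitin on a lysine near its end. The E3 ligases RING1 and RNF2, the catalytic subunits of Polycomb repressive complex 1 (PRC1), place it, and the deubiquitinase BAP1 removes it with an ASXL protein as its cofactor. In blood progenitors the mark covers broad domains over silent developmental genes, and lower levels lie at many CpG-rich promoters. Truncated ASXL1 proteins of the kind found in myeloid leukaemia keep the part that binds BAP1. CUT&RUN maps the mark by releasing the DNA around bound antibody with a tethered nuclease.

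Most intervals that the other form did not meet lay outside promoters. The sequences below show promoter sites only, CpG-rich stretches near a start site. Each is the 151 bases around the summit of a promoter peak, on the plus strand of GRCm39, with every CpG in capitals. Windows that touched an annotated untranslated region were passed over, so these are the first 3 windows per form down the ranking by fold. For 25RA without a 10RA peak they are Cenpf (chr1:189420321-189420471), Rpl22l1 (chr3:28859732-28859882) and Pcbp2 (chr15:102378722-102378872).
Cenpf: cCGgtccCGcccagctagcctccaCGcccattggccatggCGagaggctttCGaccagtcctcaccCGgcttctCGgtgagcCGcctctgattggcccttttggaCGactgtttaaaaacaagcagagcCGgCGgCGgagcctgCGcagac
Rpl22l1: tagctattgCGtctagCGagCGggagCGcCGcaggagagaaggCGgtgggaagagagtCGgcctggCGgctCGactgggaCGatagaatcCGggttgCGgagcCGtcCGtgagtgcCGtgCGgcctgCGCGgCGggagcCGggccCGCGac
Pcbp2: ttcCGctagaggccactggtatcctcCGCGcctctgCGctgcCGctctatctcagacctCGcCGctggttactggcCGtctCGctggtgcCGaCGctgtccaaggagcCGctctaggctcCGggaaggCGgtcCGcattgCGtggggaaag
For 10RA without a 25RA peak they are Psme4 (chr11:30722280-30722430), Fnta (chr8:26505397-26505547) and Hbs1l (chr10:21172201-21172351).
Psme4: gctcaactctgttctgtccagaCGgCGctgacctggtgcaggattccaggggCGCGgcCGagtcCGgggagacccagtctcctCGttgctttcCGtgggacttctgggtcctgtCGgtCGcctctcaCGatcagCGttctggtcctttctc
Fnta: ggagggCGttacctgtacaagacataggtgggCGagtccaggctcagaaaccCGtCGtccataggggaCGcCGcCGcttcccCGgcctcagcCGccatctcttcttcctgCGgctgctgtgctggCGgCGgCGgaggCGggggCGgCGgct
Hbs1l: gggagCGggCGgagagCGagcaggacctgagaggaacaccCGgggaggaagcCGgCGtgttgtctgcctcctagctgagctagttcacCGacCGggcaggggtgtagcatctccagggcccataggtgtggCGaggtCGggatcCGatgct
For peaks in both forms the windows around the 25RA summit are Coa7 (chr4:108185413-108185563) and Hps3 (chr3:20089262-20089412).
Coa7: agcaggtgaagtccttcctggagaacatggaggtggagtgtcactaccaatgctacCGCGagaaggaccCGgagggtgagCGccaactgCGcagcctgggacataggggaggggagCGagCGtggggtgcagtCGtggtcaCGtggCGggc
Hps3: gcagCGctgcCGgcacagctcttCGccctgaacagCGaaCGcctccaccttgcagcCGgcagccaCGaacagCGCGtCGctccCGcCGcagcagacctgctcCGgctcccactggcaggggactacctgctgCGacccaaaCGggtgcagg
The windows held 13, 22 and 16 CpGs for the 25RA peaks, 12, 16 and 11 for the 10RA peaks and 10 and 15 for the shared peaks. Promoter summits held a median of 11 CpGs per window in 25RA and 11 in 10RA, against 7 around the canonical TSS of all protein-coding genes. Summits outside promoters held a median of 2 in each list.

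The lists differed in depth and length. Depth was read from the lowest background of the peaks, which was 1.86 fragments per base in 25RA, 1.72 in 10RA, 2.06 in 1-590 and 0.908 in vector. The 25RA peaks covered 11.6 Mb and the 10RA peaks 9.71 Mb, with median widths of 291 and 296 bases. At the lowest background a summit of 7 fragments was enough to be listed in 25RA and in 10RA. The ratio of peak numbers, 25RA over 10RA, was 1.20, and 1.16 after each 25RA summit was thinned to the 10RA background. A peak missing from a list is one that did not reach the caller's threshold at this depth, and not a site shown to be free of the mark.

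Promoters listed in 25RA and not in 10RA outnumbered those of the opposite kind. A peak lay at 7402 promoters in both forms, which is 34.1% of all promoters (33.4 to 34.7). It lay at 2999 in 25RA only, which is 13.8% (13.3 to 14.3), and at 1588 in 10RA only, which is 7.31% (6.97 to 7.66). The remaining 9749 promoters had a peak in neither. The ratio of 25RA-only to 10RA-only promoters was 1.89, and it was 1.80 with depth matched. It was 1.40 when the 25RA list was shortened by p to the length of the 10RA list. The 2999 genes rested on 2789 distinct peaks and the 1588 genes on 1488, since neighbouring genes share promoter peaks.

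Most promoters listed in 1 form only were also listed in unmutated 1-590. That held for 74.1% of the 25RA-only promoters (72.5 to 75.7) and 64.9% of the 10RA-only promoters (62.5 to 67.2). The vector library, with the lowest background of the 4, listed 46.7% of the 25RA-only promoters (45.0 to 48.5) and 39.0% of the 10RA-only promoters (36.6 to 41.4). Of promoters with a peak in both forms, 94.2% were listed in 1-590 and 80.6% in vector. Of promoters with a peak in neither form, 18.2% were listed in 1-590 and 8.35% in vector. In each library the promoters listed in 1 form only lay between these classes. In 641 promoters (2.95% of all) 25RA was the sole library of the 4 with a peak, and in 454 (2.09%) 10RA was. Conversely 1267 promoters were listed in the other 3 libraries and missing from 10RA, and 516 were listed in the other 3 and missing from 25RA.

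**Figure D1:**
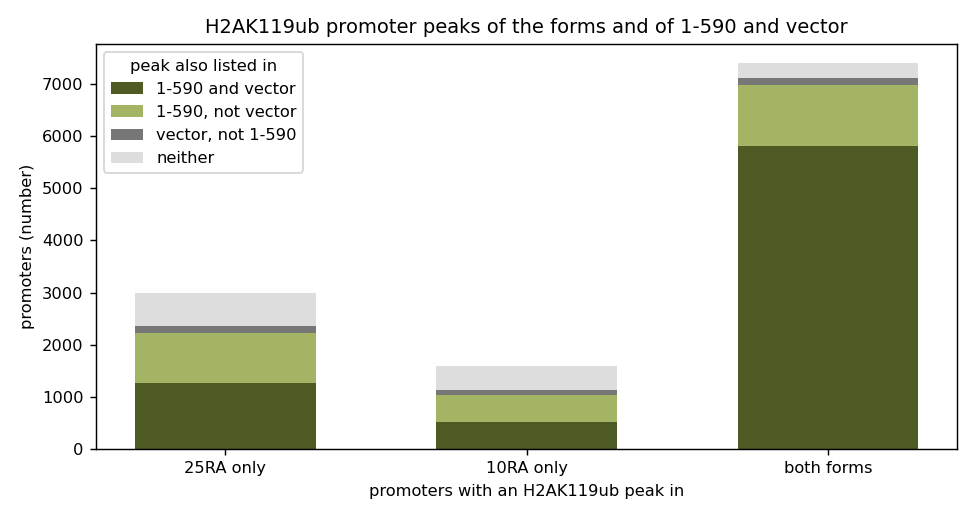
Number of promoters (vertical axis) with an H2AK119ub peak in 25RA only, in 10RA only and in both forms, split by whether 1-590 and vector also list a peak. The 25RA-only bar reaches 2999 and the 10RA-only bar 1588, and the part listed in neither other library is 641 and 454 promoters.

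The 25RA-only promoter peaks lay closer to the start site. Their median distance from summit to TSS was 265 bases, against 427.5 bases in 10RA-only promoters, and 65.0% against 53.8% lay within 500 bases. At promoters with a peak in both forms the median was 197 bases in 25RA and 202 in 10RA. Median CpG content over 1 kb around the TSS was 5.39 per 100 bases in 25RA-only promoters and 5.09 in 10RA-only promoters, against 6.49 where both forms had a peak and 1.30 where neither had. With promoters divided into 4 groups by rising CpG content the ratio of 25RA-only to 10RA-only promoters was 1.23, 1.69, 2.10 and 2.14. In the CpG-richest group 955 promoters were listed in 25RA only and 447 in 10RA only, and in the CpG-poorest group 216 and 176.

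Over the whole lists, a minority of intervals was shared. A 10RA interval met 33.5% of the 25RA intervals (33.0 to 34.0), and a 25RA interval met 40.1% of the 10RA intervals (39.6 to 40.7), with 1 base of overlap enough. The complement, intervals of 1 form that the other did not meet, was 66.5% of the 25RA list and 59.9% of the 10RA list. Sharing was highest among strong peaks. The fold used here is the one the authors' peak caller wrote for each summit, fragments plus 1 over local background plus 1. Among peaks with a fold of 6 or more, 91.7% of 25RA peaks (89.6 to 93.4) and 97.9% of 10RA peaks (96.3 to 98.8) were met. Below a fold of 2.5 the shares were 27.0% of 25RA peaks and 31.1% of 10RA peaks.

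Sharing also differed by place. At promoters 59.5% of 25RA summits and 70.8% of 10RA summits belonged to a met interval. In exons outside promoters the shares were 30.3% in 25RA and 36.6% in 10RA, in introns 18.5% and 23.3%, and outside protein-coding genes 21.7% and 25.2%. Fold and place were linked, since 86.0% of 25RA peaks and 86.1% of 10RA peaks with a fold of 6 or more lay at promoters. Where 1 interval of each list met 1 of the other, 10970 pairs in all, the summits lay a median of 78 bases apart, with an upper quartile of 172 bases.

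**Figure D2:**
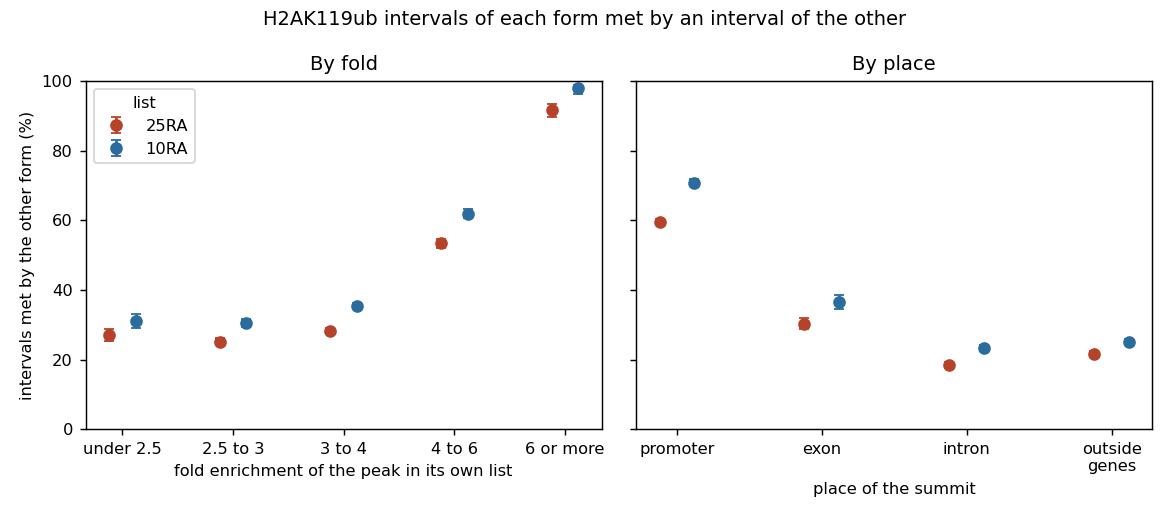
Share of intervals met by an interval of the other form (vertical axis, %), by fold in the peak's own list (left) and by place of the summit (right), with Wilson 95% intervals as bars. Points for 25RA lie below those for 10RA in every bin, and both climb above 90% at a fold of 6 or more.

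The unshared intervals had a different makeup. Of 25RA intervals not met by 10RA, 19.2% had their summit at a promoter (18.7 to 19.7), and of 10RA intervals not met by 25RA, 15.5% had (14.99 to 16.09). Among met intervals the share was 56.2% in each list. Unmet intervals were narrower, with medians of 261 bases in 25RA and 267 in 10RA, against 386 and 369 for met ones. Their median CpG number per window was 2 in each list, against 8 for met intervals. Of the unmet intervals, 71.2% in 25RA (70.6 to 71.8) and 75.3% in 10RA (74.7 to 76.0) were listed in neither 1-590 nor vector. BAP1 and ASXL1 ChIP peaks of the 1-590 and 10RA conditions met under 1% of the unmet intervals of either form, so they give no measure of BAP1 or ASXL1 at these sites.

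The promoters that led the 25RA-only group carried well-marked peaks. Resf1, a gene for a regulator of retroelement silencing, led with a fold of 8.04. Its summit held 22 fragments in 25RA over a background of 1.86, and 21 in 1-590 and 11 in vector, with no peak in 10RA. Creb3l2, a transcription factor gene of the endoplasmic reticulum stress family, had 35 fragments in 25RA, 56 in 1-590 and 20 in vector. Cenpf, for a kinetochore protein, had 28 in 25RA, 30 in 1-590 and 16 in vector. These genes were marked in 3 of the 4 libraries and went unlisted in 10RA. Gnpda2, a glucosamine-6-phosphate deaminase gene, had 25 fragments in 25RA, 15 in 1-590 and 12 in vector. Rpl22l1, a ribosomal protein paralogue, had 21, 32 and 13 in the same order. Ttll4, a tubulin polyglutamylase gene, Neu3, a sialidase gene, and Zfp788, a zinc finger gene, followed with folds of 6.99, 6.83 and 6.79, each also listed in 1-590 and vector. Csnk1a1, the casein kinase 1 alpha gene, had 28 fragments in 25RA and 28 in 1-590, and no vector peak. Ftl1, the ferritin light chain gene, also ranked here with 44 fragments, but its 25RA summit lay 1752 bases downstream of the TSS, and the vector summit, with 35 fragments, lay at 1747 bases. The 1-590 peak at Ftl1 lay at -1276 bases, upstream of the TSS, so at this gene 25RA and vector share a site that 1-590 does not list.

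The 10RA-only promoters were led by Hat1, the gene of a histone acetyltransferase, with a fold of 7.11. It had 24 fragments in 10RA and 29 in 1-590, at summits 1054 and 1127 bases downstream of the TSS, and no peak in 25RA or vector. Eml4, a microtubule-binding protein gene, had 27 fragments in 10RA, 36 in 1-590 and 18 in vector. Both genes were thus marked in 1-590 as in 10RA. Spata7, a photoreceptor cilium gene, had 20 in 10RA and 12 in 1-590. Uba2, the catalytic subunit of the SUMO E1 enzyme, had 15 and 18, and Uqcc1, a respiratory complex III assembly factor, had 16 and 15. Zfp790 had 18 in 10RA, 31 in 1-590 and 17 in vector. Peaks shared by neighbouring genes led for Ubfd1 with Ears2 (22 fragments in 10RA) and for Atp6v1b2 with Slc18a1 (16 fragments). Psme4, a proteasome activator gene, and Edem2, of endoplasmic reticulum quality control, closed the group with folds of 5.51 and 5.40. Each of the 20 promoters under these leading peaks, counted once per peak, also had a peak in 1-590, at Ftl1 at another site.

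**Figure D3:**
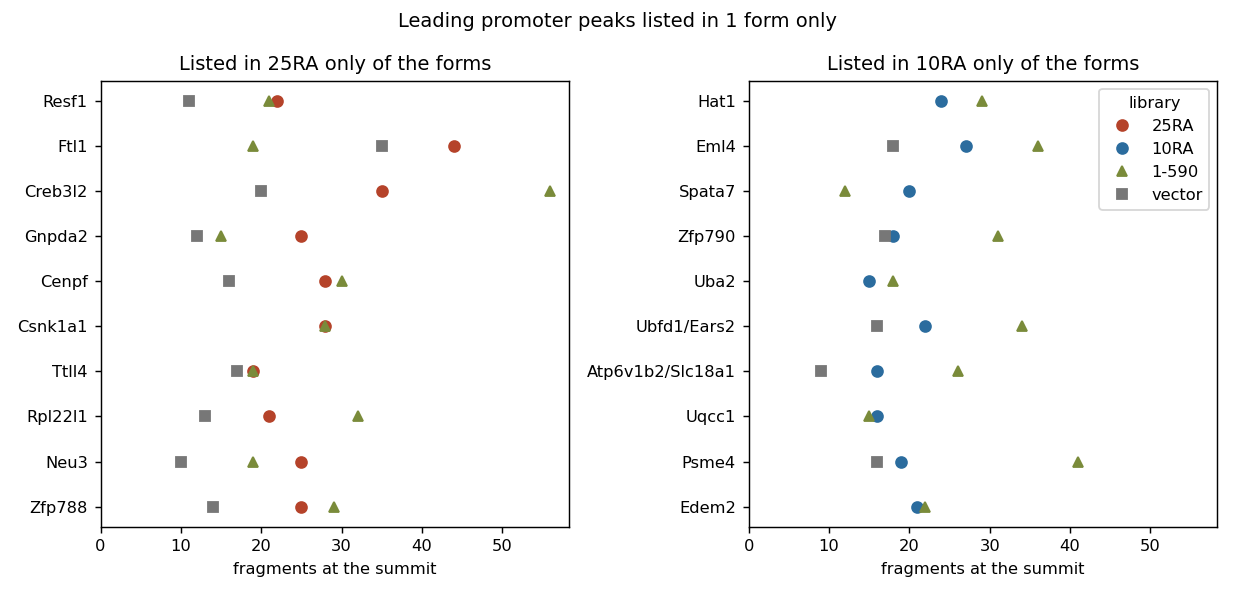
Fragments at the summit (horizontal axis) of the 10 leading promoter peaks of 25RA only (left) and of 10RA only (right), with the strongest promoter peak of 1-590 and vector where listed. Every gene has a 1-590 triangle, and a vector square is missing at Csnk1a1 on the left and at Hat1, Spata7, Uba2, Uqcc1 and Edem2 on the right.

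Among peaks listed in 1 form and in none of the other 3 libraries, those of 25RA were led by Zfp951 (fold 6.64, 18 fragments), Suox, the sulfite oxidase gene (31 fragments over a background of 4.90), Zmym2 (15), Zcchc4 (15) and Frmpd2 (17). Those of 10RA were led by the olfactory receptor gene Or5an6 (fold 5.004, 13 fragments), Dennd2b (20), Limch1 (12), Cfap20dc (12) and Rhox2d (12). At the top of the shared promoters stood Zfp619 with 35 fragments in 25RA and 38 in 10RA, and Idi1, of isoprenoid synthesis, with 48 and 37. Derl2 and Mis12, which share a peak, had 49 and 30, and Snx11 had 39 and 50. These shared peaks were also listed in 1-590 and vector.

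The list of 16 genes of the BAP1 complex and its partners had 9 in both forms, 5 in 25RA only (31.2%) and 1 in 10RA only (6.25%). Over all promoters the shares were 34.1%, 13.8% and 7.31%. The promoters of this list had a median CpG content of 7.99 per 100 bases. In the CpG-richest group of promoters the shares were 59.1%, 17.2% and 8.07%. Bap1 had a peak in both, with 18 fragments in 25RA and 13 in 10RA. Asxl1 had one in 25RA (12 fragments) and none in 10RA. Other 25RA-only members included Hcfc1 and Foxk2, partners of BAP1 in chromatin, with 17 fragments each, and Bard1, the partner of BRCA1, with 23. Mbd6, a methyl-binding domain partner, was the 10RA-only member.

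Of 34 PRC1 genes, 14 had a peak in both forms, 9 in 25RA only and 3 in 10RA only. Among the 9 were the ligases Ring1 (18 fragments) and Rnf2 (15), the chromobox gene Cbx2 (31), and Phc2, Phc3, Pcgf3, E2f6, Skp1 and Scmh1. The 3 were Rybp (20), Bcor (19) and Phc1 (19). Of 14 PRC2 genes, the counts were 2 in 25RA only, Eed and Suz12, and 2 in 10RA only, Rbbp7 and Epop. Against 13.8% and 7.31% of all promoters, PRC1 genes stood at 26.5% in 25RA only and 8.82% in 10RA only. The PRC1 promoters had a median CpG content of 8.19 per 100 bases. In the CpG-richest group of promoters the shares were 17.2% in 25RA only and 8.07% in 10RA only.

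Genes tied to ASXL1-mutant leukaemia had members of each kind. Of 33 genes mutated alongside ASXL1, 7 were listed in 25RA only (21.2%) and 2 in 10RA only (6.06%), with 18 in both, against 13.8% and 7.31% of all promoters. The 7 included the cohesin genes Stag2 (11 fragments), Rad21 (15) and Smc3 (10), together with Setbp1, Gata2, Nf1 and Etv6. The 2 were Tet2, the DNA demethylation gene (12 fragments), and Bcor. Of 31 regulators of progenitors and leukaemia, 5 were listed in 25RA only (Gata2, Lmo2, Etv6, Gfi1b and Spi1) and 5 in 10RA only (Myb, Fli1, Mecom, Hlf and Tet2), 16.1% in each case. The cell cycle inhibitors and tumour suppressors had 10 of 16 in both forms, 4 in 25RA only (Cdkn1a, Nf1, Apc and Vhl) and 0 in 10RA only. Cdkn2a had 21 fragments in 25RA and 26 in 10RA, over backgrounds of 7.98 and 8.39. Among cytokine feedback inhibitors 4 of 8 were in 25RA only (Socs1, Socs5, Socs6 and Socs7) and 1, Socs3, in 10RA only. Median CpG content per 100 bases was 8.19 for genes mutated alongside ASXL1. It was 8.39 for the cell cycle inhibitor list and for the cytokine feedback inhibitors. In the CpG-richest group of promoters the shares were 17.2% in 25RA only and 8.07% in 10RA only.

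Several gene families had more 25RA-only than 10RA-only members, and others, given further on, did not. Over all promoters the shares were 13.8% in 25RA only and 7.31% in 10RA only. In the 4 groups of rising CpG content the 25RA-only shares were 4.12%, 14.8%, 18.5% and 17.2%. The 10RA-only shares there were 3.36%, 8.76%, 8.85% and 8.07%. The 418 zinc finger Zfp genes, many of them KRAB repressors of retroelements, had 97 in 25RA only (23.2%) and 27 in 10RA only (6.46%). With lists of equal length these counts were 83 and 36. Leading the 97 after Zfp788 and Zfp951 were Zfp280c (22 fragments), Zfp729b (15) and Zfp383 (15), and leading the 27 after Zfp790 were Zfp786 (19) and Zfp456 (15). On chromosome 7, which has 96 of these genes, 25 were in 25RA only and 10 in 10RA only, and on chromosome 5, with 20, the counts were 10 and 1. Of 54 Mediator and TFIID genes, which serve RNA polymerase II initiation, 19 were in 25RA only (35.2%), such as Med13 (20 fragments) and Taf1b (17), and 4 in 10RA only (Med10, Med12, Med14 and Taf1). Taf1b and Taf1c, counted here by name, serve RNA polymerase I.

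Of 38 ubiquitin-conjugating enzyme genes, 13 were in 25RA only (34.2%), such as Ube2c (30 fragments) and Ube2d2a (17), and 1, Ube2e2 (12), in 10RA only. Of 52 DEAD and DEAH box helicase genes, 10 were in 25RA only (19.2%) and 1, Ddx3x (12), in 10RA only. Proteasome genes had 13 and 7 of 51, nuclear genes of oxidative phosphorylation 17 and 7 of 85, and mitochondrial ribosomal protein genes 17 and 7 of 78. Translation factor genes had 16 and 6 of 87, and cytosolic ribosomal protein genes 12 and 8 of 83. The last stood near the 13.8% and 7.31% of all promoters, with 14.5% and 9.64%. Over 38 lists, 27 had more members in 25RA only, 8 had more in 10RA only and 3 were even. Over all promoters the ratio of 25RA-only to 10RA-only was 1.89. A list that matched all promoters would thus also have more members in 25RA only. Some genes, such as Gata2, Tet2 and Bcor, are in more than 1 list, so the lists are not separate counts. The order stayed with 25RA in 21 lists under each of 5 settings (as listed, promoters of 5 kb, q of 0.05, matched depth and equal list length), and stayed with 10RA in 1.

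**Figure D4:**
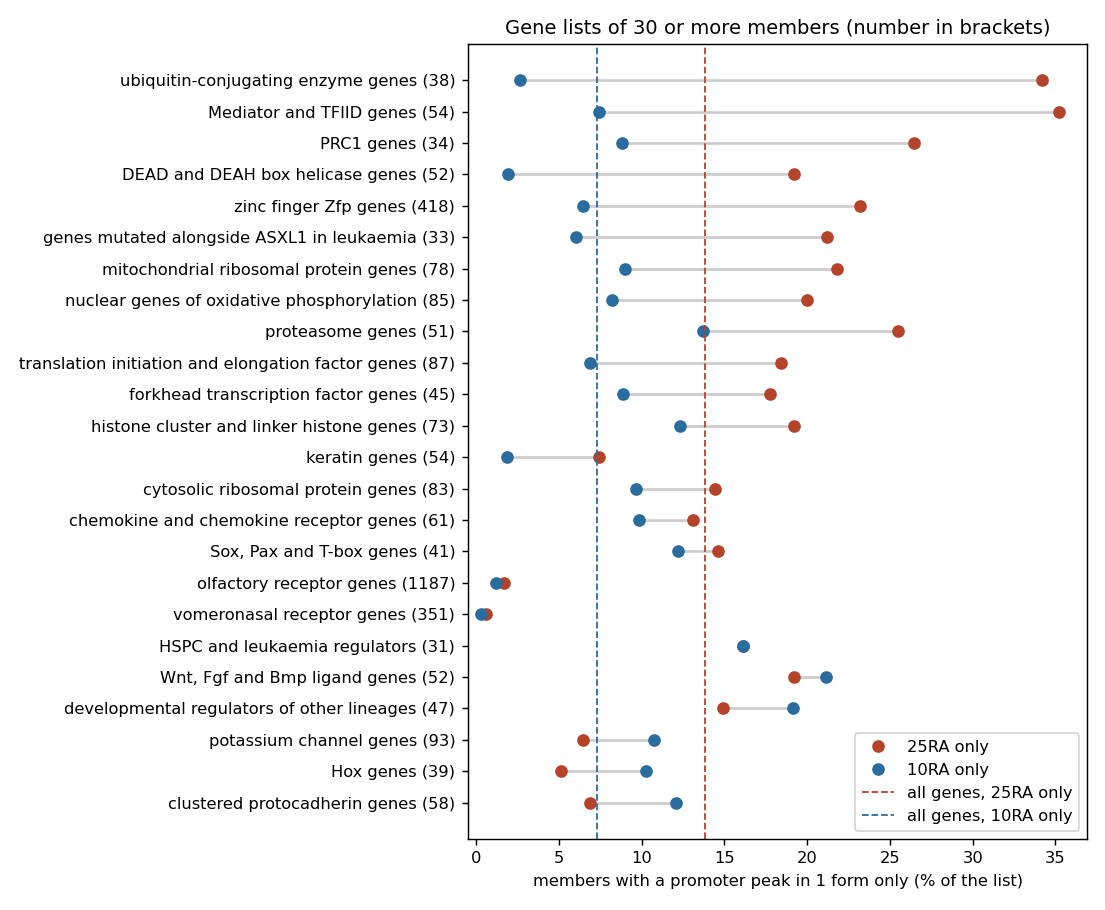
Share of each list's members (horizontal axis, %) with a promoter peak in 25RA only and in 10RA only, for lists of 30 or more genes, with dashed lines at 13.8% and 7.31% for all promoters. The widest gaps are at ubiquitin-conjugating enzyme and Mediator genes, and 5 lists at the bottom have the 10RA point to the right as listed.

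In the remaining lists the counts of 25RA-only and 10RA-only members, to be read against 13.8% and 7.31% of all promoters, were as follows. Olfactory receptor genes, silent in blood cells, had 20 in 25RA only and 14 in 10RA only of 1187 (1.68% and 1.18%), and vomeronasal receptor genes 2 and 1 of 351. Histone genes had 14 and 9 of 73 (19.2% and 12.3%), forkhead genes 8 and 4 of 45, chemokine and chemokine receptor genes 8 and 6 of 61, Sox, Pax and T-box genes 6 and 5 of 41, and keratin genes 4 and 1 of 54. Clustered histone genes shared peaks, so their counts exceed the number of peaks. Those with equal fold and fragments included H2ac20, H2ac21 and H2bc21 in 25RA only, and H2ac7, H2bc7 and H3c4 in 10RA only. Among cell type lists, mature myeloid genes had 4 and 3 of 27, erythroid and megakaryocyte genes 4 and 1 of 23, lymphoid genes 4 and 2 of 25, mast cell and basophil genes 2 and 3 of 13, and stromal and endothelial genes 2 and 0 of 18. JAK and STAT genes had 2 and 1 of 11, interferon-stimulated genes 3 and 1 of 20, MYC and growth genes 2 and 3 of 22, MCM helicase genes with Pcna 2 and 2 of 10, and MLL methyltransferase and UTX genes 1 and 3 of 18. Of these 17 lists those of MYC and growth, MLL, MCM, olfactory, vomeronasal, Sox, lymphoid, mature myeloid, erythroid and mast cell genes changed or lost their order in at least 1 of the 5 settings.

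Hox genes, developmental regulators of other lineages, potassium channel genes, Wnt, Fgf and Bmp ligand genes and clustered protocadherin genes had more 10RA-only than 25RA-only members as listed, and apart from the protocadherins their order turned with promoters of 5 kb. Of 39 Hox genes 27 had a peak in both forms, 2 in 25RA only (Hoxa2 and Hoxc9) and 4 in 10RA only (Hoxa3, Hoxa6, Hoxc10 and Hoxd11). With promoters of 5 kb the counts were 3 and 2, where 14.5% of all promoters were listed in 25RA only and 7.97% in 10RA only. Developmental regulators of other lineages had 7 and 9 of 47, and 5 and 4 at 5 kb. Potassium channel genes had 6 and 10 of 93, and 14 and 9 at 5 kb. Wnt, Fgf and Bmp ligand genes had 10 and 11 of 52, and 10 and 9 at 5 kb. Clustered protocadherin genes, with 4 and 7 of 58, kept the order at 5 kb with 3 and 8, but at q of 0.05 the counts were 4 and 5, and the 7 in 10RA only were Pcdhga genes, which lie side by side. As listed, protocadherins stood at 6.90% in 25RA only and 12.1% in 10RA only, against 13.8% and 7.31% of all promoters. No direction is given for these 5 lists.

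Hox promoters lay in a high local background. Where both forms had a peak, the local background was a median of 6.24 times the genome background in 25RA and 7.27 times in 10RA, against 2.23 and 2.11 times over all shared promoters. In the Hoxa cluster (chromosome 6) the summit of Hoxa10 held 51 fragments over 15.4 in 25RA and 37 over 15.8 in 10RA, at different sides of the TSS. Hoxa9 had 38 over 14.2 in 25RA and 38 over 16.1 in 10RA, Hoxa11 had 28 and 39 fragments, and Hoxa13 31 and 37. Hoxa4 had 23 in 25RA and 20 in 10RA. Hoxa2 had 19 fragments over 5.27 in 25RA, while Hoxa3 had 28 over 12.9 and Hoxa6 26 over 10.5 in 10RA. Hoxa5 and Hoxa7 were listed in neither form. A peak is called over its local background, so where that background is high a missing peak does not show that the mark is missing.

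Some strong exon intervals were listed in 25RA and vector and in neither 10RA nor 1-590. Among the 25RA intervals not met by 10RA, 1100 were listed in vector and not in 1-590. Outside promoters, 15.8% of these lay in exons (13.5 to 18.3), and 22 of the exon intervals had a fold of 5 or more. The matching 10RA intervals, not met by 25RA, numbered 763, with 12.6% in exons (10.2 to 15.5) and 2 of that fold, at Kcnk12 and Tmem132e. The intervals of these shares overlap, and among unmet intervals listed in both 1-590 and vector the exon share outside promoters was 14.6% in 25RA (12.2 to 17.3) and 14.4% in 10RA (11.5 to 18.1). The fold limit and this grouping were chosen after the values were seen. The strongest was at Cpa3, the mast cell carboxypeptidase gene (chr3:20269830-20270145), with 40 fragments in 25RA and 48 in vector. Spp1, the osteopontin gene, had 65 in 25RA and 92 in vector, Fth1, the ferritin heavy chain gene, 71 and 91, and Psap, the prosaposin gene, 108 and 136. Ctsd, the cathepsin D gene, had 73 and 89, and Cma1, a mast cell chymase gene, 28 and 53. Further genes were Lgals3 (2 intervals), Fcer1a, the alpha chain of the mast cell IgE receptor, Ccl6, B2m, Eef1a1, Gpnmb, Mmp12, Srgn, Alox5ap and H2-D1. The rest were Fstl1, Cast, Slc3a2, Mid2 and another interval at Cpa3. Of all these genes, Cpa3, Cma1 and Fcer1a are in the mast cell and basophil list, and the others are not. Gene expression was not measured here. Of the 22 intervals, 11 had fewer fragments in 25RA than in vector and 11 had more, such as H2-D1 with 29 in 25RA and 22 in vector. Fragments are not scaled for depth, and the lowest background was 1.86 in 25RA and 0.908 in vector. Fold was lower in vector at Srgn, Alox5ap, H2-D1 (5.29 in 25RA and 5.24 in vector) and Slc3a2. At the other intervals, which were most of the 22, fold was higher in vector.

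**Figure D5:**
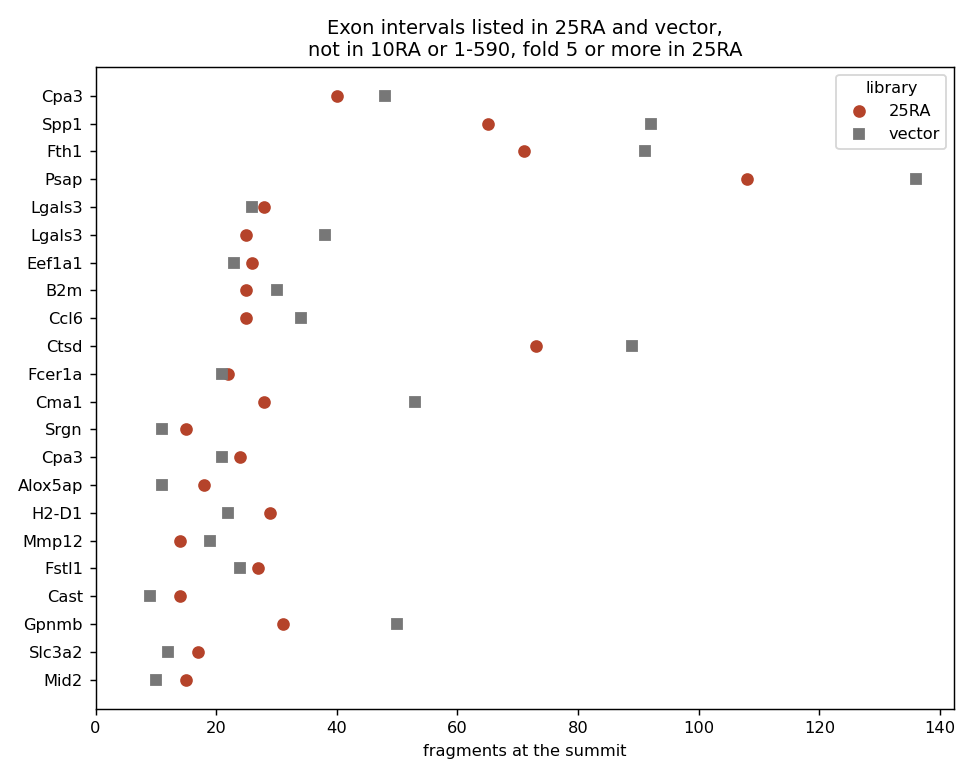
Fragments at the summit (horizontal axis) in 25RA and vector at the 22 exon intervals with a fold of 5 or more in 25RA that are listed in neither 10RA nor 1-590. Psap has the most, 108 in 25RA and 136 in vector. Fragments are not scaled for depth.

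The marker lists gave these values. A summit in an exon more than 500 bases from the TSS was listed for 6 of 13 mast cell and basophil genes in 25RA (Cma1, Cpa3, Fcer1a, Gata2, Hdc and Mitf), 2 in 10RA (Cma1 and Il4), 2 in 1-590 (Gata2 and Hdc) and 5 in vector (Cma1, Cpa3, Fcer1a, Hdc and Tpsb2). The other 5 (Ms4a2, Mcpt4, Mcpt8, Tpsab1 and Prss34) had none in any of the 4. For mature myeloid genes it was 9 of 27 in 25RA, 7 in 10RA, 9 in 1-590 and 9 in vector. In the same order it was 5, 6, 5 and 3 of 23 erythroid and megakaryocyte genes. Lymphoid genes had 7, 3, 4 and 3 of 25, and stromal and endothelial genes 7, 4, 3 and 2 of 18. Over all 21738 genes it was 3974 in 25RA, 3347 in 10RA, 3538 in 1-590 and 2672 in vector. Of all exon intervals outside promoters with a fold of 5 or more, 57 of 72 in 25RA met a vector interval (79.2%, 68.4 to 86.9), as did 29 of 46 in 10RA (63.0%, 48.6 to 75.5) and 64 of 81 in 1-590 (79.0%, 68.9 to 86.5). In the reverse direction, 92 of 123 such vector intervals were met by 25RA (74.8%, 66.5 to 81.6). The 1-590 list met 57 of the 123 (46.3%, 37.8 to 55.1) and the 10RA list 52 (42.3%, 33.9 to 51.1). Whether the cell mix of these cultures differed was not tested. The exon intervals with a fold of 5 or more have their summits outside promoters. The marker gene tally starts 500 bases from the TSS, so it can include summits within the 2 kb promoters. The site at Ftl1 lies within the promoter and was counted there.

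The strongest intervals of all were common to the forms. The same 3 led each list: chr3:5925404-5925861 between genes (93 fragments in 25RA and 95 in 10RA), chr16:57211824-57212031 in an intron of Filip1l and Cmss1 (115 and 120), and chr9:123290887-123291234 in an exon of Lars2 (135 and 156). The first and the last were listed in 12 of the 12 libraries, ChIP included, and the other in 6. Outside promoters the leading unmet 10RA intervals were chr8:124334190-124334405, with 19 fragments, 46231 bases from the TSS of Rhou, and chr13:12665039-12665306, with 18 fragments, in no gene. None of the 5 leading unmet 10RA intervals lay in an exon, whereas 3 of the 5 in 25RA did, at Cpa3, Spp1 and Fth1. The other 2 in 25RA were chr11:3076660-3077163, with 29 fragments, and chr8:20697795-20698201, with 20, both outside protein-coding genes.

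The surplus of 25RA peaks was spread over the autosomes. The number in 25RA over that in 10RA ran from 1.11 on chromosome 11 to 1.31 on chromosome 12, and was 1.06 on X. The X also had the lowest sharing of the chromosomes. There 20.5% of 1139 25RA intervals and 21.4% of 1078 10RA intervals were met, against at least 30.7% of 25RA and 37.5% of 10RA intervals on each autosome. Peaks on X also had a lower local background, a median of 1.35 times the genome background in 25RA and 1.52 in 10RA. On each autosome it was at least 1.84 in 25RA and 1.74 in 10RA. Whether this bears on the sharing was not tested. The Y held 8 intervals in 25RA and 3 in 10RA.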

How the data were processed

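H2AK119ub CUT&RUN peak lists of 25RA and 10RA, 1 library each, were compared, with the 1-590, vector and ChIP lists as context. The submitters' processing notes name MACS3 3.0.3 and mm39 (GRCm39), and also Picard, SAMtools, Bowtie2 2.5.4 and fastp 0.24.0. The deposited lists hold a score, a fold enrichment (a ratio), a -log10 p-value and a -log10 q-value per peak, which the authors made with their peak caller, separately for each library; the summit offset in bases is also deposited. Listed peaks reach p of 0.001, and 94.1% of 25RA peaks and 91.1% of 10RA peaks have q of 0.05 or less. Per the labels, E. coli spike-in reads served for normalization. The whole number of fragments at each summit and its local background were recovered from fold and p (100% of 25RA and 10RA peaks, tolerance 0.01 on the log10 scale). Whether reads were scaled down by the spike-in before calling is not given in the sources used here, and the recovered depth would carry such a scale. Total reads per library are unknown.

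Positions count from 1. Genes came from GENCODE vM39. An overlap of 1 base counts as shared. Matched depth is the exact binomial expectation after keeping 92.6% of 25RA fragments. Functions were tested on simulated data. Versions were Python 3.11.15, pandas 2.3.3, scipy 1.17.1 and pysam 0.24.0. The 38 gene lists were written from general knowledge or name patterns. Members, lists and settings were chosen with earlier results of these data known. Named genes were the 10 leading promoter peaks by fold per form, the 5 leading ones in a single library, the 5 leading shared ones, the 5 leading unmet intervals, the 3 strongest intervals, list members, Bap1, Asxl1, Cdkn2a and the Hoxa genes. A few of these are not reported here. Sequence windows follow that ranking, leaving out chromosome 18 and untranslated regions. Peaks on other sequences (46 in 25RA, 44 in 10RA) were left out.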

Additional observations from a re-analysis of the deposited data

How the results depend on the processing

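No paired analysis was possible because each condition had 1 library, for the same reason no replicate could be left out, and depth limits which peaks reach the list. The counts of promoters in both forms, in 25RA only and in 10RA only stayed within 1.5 times in each of 9 alternatives. The shares depended on their definition. The share of 25RA intervals met was 24.2% when overlap had to reach 0.5 of both intervals, 28.5% with the summit inside the other interval, 37.4% with a gap of 500 bases, 35.8% at p of 1e-05, 37.6% with lists of equal length and 30.6% of covered bases. The share of 10RA intervals met was 29.0%, 34.4%, 44.4%, 44.6%, 37.6% and 36.6% in the same order, and 41.8% at q of 0.05. With lists of equal length the larger share of 10RA was gone, since list length enters both shares. Promoter shares of 25RA summits were 26.0% at 1 kb, 38.2% at 5 kb and 32.7% at q of 0.05, and of 10RA summits 26.2%, 39.1% and 33.5%. Among unmet intervals they were 14.5%, 26.0% and 20.1% in 25RA, and 10.7%, 23.4% and 16.4% in 10RA. Lists with more 25RA-only than 10RA-only members, 27 of 38 as listed, numbered 32 at 5 kb, 28 at q of 0.05, 27 with depth matched and 23 with lists of equal length, the last chosen after seeing the data. Promoters as a whole also had more in 25RA only than in 10RA only under each of these settings.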
